A study of Homo sapiens with 6 samples.

Results

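The pentose phosphate pathway enzymes examined here were the 7 genes PGLS, PGD, RPIA, RPE, TKT, TALDO1 and RBKS, taken by name as enzymes of the pathway and matched by symbol and Ensembl identifier among the 57905 genes of the count table. All 7 passed the filter on low counts and were among the 16622 genes tested. RNA sequencing had been performed on NALM6 cells, a human B-ALL (B cell acute lymphoblastic leukemia) line. Of the 6 libraries, 3 came from cells given the solvent DMSO and 3 from cells given 500 nM of THZ1, a covalent inhibitor of the transcription kinase CDK7, each for 24 h. The labels do not say whether the 3 libraries of a treatment came from separate cultures, so the p-values measure the spread between these libraries, which may be technical, and a single cell line was used.

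The pentose phosphate pathway branches off glycolysis at glucose 6-phosphate. Its oxidative branch produces NADPH, the reducing agent for lipid synthesis and glutathione recycling, and ribulose 5-phosphate. Its non-oxidative branch interconverts pentose phosphates with the fructose 6-phosphate and glyceraldehyde 3-phosphate of glycolysis, and ribose 5-phosphate from the pathway is the sugar of nucleotides, which dividing leukemia cells need for DNA and RNA.

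The DMSO-treated libraries held 11015480 to 11164840 counts and the THZ1-treated libraries 7876402 to 8314306. The most abundant gene, MT-CO1 or EEF1A1, took 1.09% to 1.11% of the counts in the DMSO-treated libraries, and MT-CO1 took 3.47% to 3.66% in the THZ1-treated libraries. Levels are given as CPM, the counts of a gene scaled to a common library total, after TMM scaling, which assumes that most genes kept their level. Levels are thus relative, and in bulk RNA fewer cells of a type and less RNA per cell cannot be told apart. After this scaling, 6826 of the 16622 genes tested were called lower and 7224 higher by the test below, and 2572 were not called changed. By these calls most genes did not keep their level, so the assumption as stated was not met. How far this moved the scaled levels was not tested. All 10 B precursor markers were above 1 CPM under both treatments, with a summed level of 3890 to 4050 CPM with DMSO and 2095 to 2169 CPM with THZ1. Summed over 4 markers each, T cell markers were at 0 to 0.165 CPM with DMSO and 0.267 to 0.969 CPM with THZ1, and myeloid markers at 3.80 to 4.51 CPM and 10.5 to 12.6 CPM. Erythroid markers were at 0.164 to 0.253 CPM with DMSO and 2.94 to 3.81 CPM with THZ1, and stroma markers at 11.4 to 13.0 CPM and 18.7 to 20.6 CPM. The part of these levels in the results below was not tested.

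With THZ1, 4 of the 7 enzymes fell and 3 rose. The 4 that fell were PGD, of the oxidative branch, and RPE, TKT and TALDO1, of the non-oxidative branch. The 3 that rose were PGLS, RPIA and RBKS, and the calls of RPIA and RBKS depended on the processing, as given with their values. All 7 calls were made by edgeR's quasi-likelihood test at a Benjamini-Hochberg adjusted p-value below 0.05 over all genes tested. Of all genes tested, 41.1% were called lower and 43.5% higher by the same rule, and among the 10156 genes whose mean level reached 10 CPM the shares were 50.6% and 35.8%, so calls were frequent among all genes and nothing particular to the pathway is read from these counts. In this fit none of the 7 reached the study's fold threshold of 1.5 on the log2 scale. With an adjusted p-value below 0.05, 12.9% of all genes passed that threshold downward and 24.6% upward. Whether members passed depended on the processing. RBKS was at 1.54 with upper quartile scaling and 1.503 without DMSO replicate 2, and TKT at −1.56 with library sizes alone. For all 7 the THZ1-treated libraries did not overlap the DMSO-treated libraries, which held for 41.3% of all genes in the downward and 43.4% in the upward direction. The median log2 fold change was −0.89 over the 7 members and 0.03 over all genes tested. Neither this median nor the fold shares were taken over the genes at 10 CPM or more alone, where more genes were called lower than higher.

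The DNA just before the start of each gene was read from RefSeq (GRCh38.p14), and the stretches with a CCAAT box, which most members hold, are shown. The GC box was in more members, 6 of 7, and its stretches are not shown. In the 250 bases before the RefSeq start, the CCAAT box (CCAAT, or ATTGG on the other strand) was present in 5 of the 7 members, namely PGD, RPIA, RPE, TKT and TALDO1, against 33.0% of 27305 promoters. PGLS and RBKS held no match, and the matches were not compared with the direction of change. In GENCODE the whole RBKS window is annotated exon of RBKS, since another transcript starts further upstream, and the whole PGLS window is annotated exon of another gene, so the windows are not alike in what they hold. The windows below are 29 bases long, 5′ to 3′ on the strand of the gene, with the match in capitals and with GRCh37 coordinates found by exact match to that genome.
PGD, chr1:10459003-10459031, plus strand: cgtcggggagagCCAATggtgtggcttca
PGD, chr1:10459042-10459070, plus strand: cccttccattcgATTGGccggcgccgaaa
RPE, chr2:210867308-210867336, plus strand: aaaactgcgcgcCCAATcggggtgacgct
TKT, chr3:53290225-53290253, minus strand: tatgttattattATTGGtgtgtgtggtta
TALDO1, chr11:747384-747412, plus strand: cgccgctttccgATTGGcagccgcccgcg
RPIA, chr2:88991040-88991068, plus strand: gagcattatgggATTGGtagtccagactg
The matches began 106 and 67 bases before the start of PGD, 42 before RPE, 203 before TKT, 68 before TALDO1 and 139 before RPIA. The RPE window lies within an exon of another RPE transcript, both PGD windows lie outside annotated exons but within the annotated PGD gene, and those of RPIA, TKT and TALDO1 lie before the annotated gene. The GC box (GGGCGG on either strand) was present in 6 of 7 members, all but PGLS, against 42.3% of promoters. The core of the antioxidant response element (TGACNNNGC on either strand) was present in PGD and RPE, 2 of 7, against 11.0%. The E-box CACGTG, which reads the same on both strands, was in 0 of 7 against 6.49%, and TATAAA on either strand in 0 of 7 against 11.1%. No match of another motif shared a base with these CCAAT matches. The 250-base member windows had 60.0% to 78.4% G and C and 19 to 40 CpG dinucleotides, against medians of 58.0% and 11 over all promoters. Motif matches describe these letters in these windows only.

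Of the members in the oxidative branch, PGLS rose and PGD fell. PGLS (ENSG00000130313) encodes 6-phosphogluconolactonase, which opens the lactone to 6-phosphogluconate, and lies on chromosome 19 from 17622445 to 17632097 on the plus strand (GRCh37). PGLS was at 58.6, 49.5 and 65.0 CPM in DMSO replicates 1 to 3 and at 76.1, 82.4 and 78.9 CPM in THZ1 replicates 1 to 3. Its lowest THZ1-treated library was above its highest DMSO-treated library. The log2 fold change of PGLS was 0.46 (standard error 0.09, 95% interval 0.27 to 0.64, adjusted p = 2.61e-05 by edgeR), a 1.37-fold rise. PGLS-DT, a long non-coding RNA gene on the opposite strand, shares 254 exonic bases with PGLS, 8.94% of the exonic bases of all PGLS transcripts together. Over 241 bases PGLS-DT matches the main PGLS transcript of 1008 bases at 100% identity, which is 23.9% of that transcript. PGLS-DT held 375, 376 and 396 counts with DMSO and 300, 281 and 272 with THZ1, and its log2 fold change was 0.27. The strand setting of the counting is not named, so reads of the pair cannot be told apart, and the part of PGLS-DT in the PGLS value was not tested.

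PGD (ENSG00000142657) encodes 6-phosphogluconate dehydrogenase, which oxidises 6-phosphogluconate to ribulose 5-phosphate and forms NADPH. It lies on chromosome 1 from 10458649 to 10480568 on the plus strand. PGD was at 248, 240.2 and 262 CPM in the DMSO-treated libraries and at 140.4, 125 and 138 CPM in the THZ1-treated libraries, in replicate order. The treatments did not overlap, with every DMSO-treated library far above every THZ1-treated library. The log2 fold change of PGD was −0.89 (standard error 0.07, 95% interval −1.04 to −0.75, adjusted p = 4.64e-13 by edgeR), to 0.538 of the DMSO level. No annotated gene overlaps PGD, and a similar processed pseudogene held 0 counts in every library.

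Both enzymes that use ribulose 5-phosphate were measured, and they moved in opposite directions. RPIA (ENSG00000153574), ribose-5-phosphate isomerase, converts ribulose 5-phosphate to the ribose 5-phosphate of nucleotides, and lies on chromosome 2 from 88991191 to 89050446 on the plus strand. RPIA was at 60.7, 54.8 and 59.1 CPM with DMSO and at 72.1, 71.7 and 68.6 CPM with THZ1. The libraries did not overlap, but the gap between 60.7 and 68.6 CPM was small. The log2 fold change of RPIA was 0.28 (standard error 0.08, 95% interval 0.12 to 0.45, adjusted p = 0.0021 by edgeR). With library sizes alone in place of TMM the value of RPIA was 0.035 (adjusted p = 0.693 by edgeR), and with limma on the deposited log2 FPKM values it was 0.12 (adjusted p = 0.143). The adjusted p-values of RPIA ran from 3.28e-06 to 0.693 over 16 alternatives, so its call as higher depended on the processing.

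RPE (ENSG00000197713), ribulose-5-phosphate 3-epimerase, converts the same substrate to xylulose 5-phosphate, which feeds TKT. It lies on chromosome 2 from 210867289 to 210886984 on the plus strand. RPE was at 53.1, 58.9 and 53.2 CPM with DMSO and at 23.3, 25.9 and 23.4 CPM with THZ1. Every THZ1-treated library held less than every DMSO-treated library by a wide margin. The log2 fold change of RPE was −1.19 (standard error 0.10, 95% interval −1.39 to −0.99, adjusted p = 1.14e-12 by edgeR), to 0.439 of the DMSO level. KANSL1L on the opposite strand shares 840 exonic bases, 23.8% of the exonic bases of RPE, and its log2 fold change was −0.41. RPEL1, which matches RPE at 96.8% identity over 1756 bases, held 2, 1 and 1 counts with DMSO and 0 with THZ1. The processed pseudogene RPEP4, 92.1% identical over 479 bases, held 0 counts with DMSO and 24, 16 and 11 with THZ1, against 175 to 187 counts of RPE in the same libraries. The part of shared or similar sequence in the RPE value was not tested.

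The carbon-transferring enzymes of the non-oxidative branch both fell. TKT (ENSG00000163931) encodes transketolase, the thiamine-dependent enzyme that moves short carbon units between sugar phosphates, and lies on chromosome 3 from 53258728 to 53290068 on the minus strand. TKT was at 691, 634 and 706 CPM with DMSO and at 283, 264 and 271 CPM with THZ1, and the lowest DMSO-treated library held more than 2 times the level of the highest THZ1-treated library. It was the most abundant of the 7 by reads and had their lowest log2 fold change, −1.31 (standard error 0.07, 95% interval −1.45 to −1.17, adjusted p = 1.4e-17 by edgeR), to 0.403 of the DMSO level. TALDO1 (ENSG00000177156) encodes transaldolase, which moves dihydroxyacetone units between sugar phosphates, and lies on chromosome 11 from 747415 to 765012 on the plus strand. TALDO1 was at 232, 198 and 259 CPM with DMSO and at 109, 115 and 125 CPM with THZ1. The spread within DMSO was wider than for TKT, though the treatments did not overlap. The log2 fold change of TALDO1 was −0.98 (standard error 0.08, 95% interval −1.15 to −0.81, adjusted p = 2.08e-12 by edgeR), to 0.507 of the DMSO level. No annotated gene overlaps TKT or TALDO1.

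RBKS (ENSG00000171174), ribokinase, phosphorylates free ribose and so feeds ribose 5-phosphate into the pathway from outside. It lies on chromosome 2 from 28004246 to 28113548 on the minus strand. RBKS held only 43, 57 and 37 counts with DMSO and 57, 68 and 90 counts with THZ1, or 3.56, 4.67 and 3.12 CPM against 7.50, 9.41 and 12.03 CPM. It was the least abundant of the 7 by reads, and in raw counts DMSO replicate 2 equalled THZ1 replicate 1. On the CPM scale the treatments did not overlap. The log2 fold change of RBKS was 1.34 (standard error 0.21, 95% interval 0.91 to 1.78, adjusted p = 9.66e-07 by edgeR), a 2.54-fold rise with the widest interval of the 7. With limma on the deposited log2 FPKM values the value of RBKS was 0.52 (adjusted p = 0.0602), and over 16 alternatives its adjusted p-values ran from 1.01e-09 to 0.067. BABAM2 and MRPL33 overlap RBKS on the opposite strand, with 8 shared exonic bases for BABAM2 and 0 for MRPL33.

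**Figure D1:**
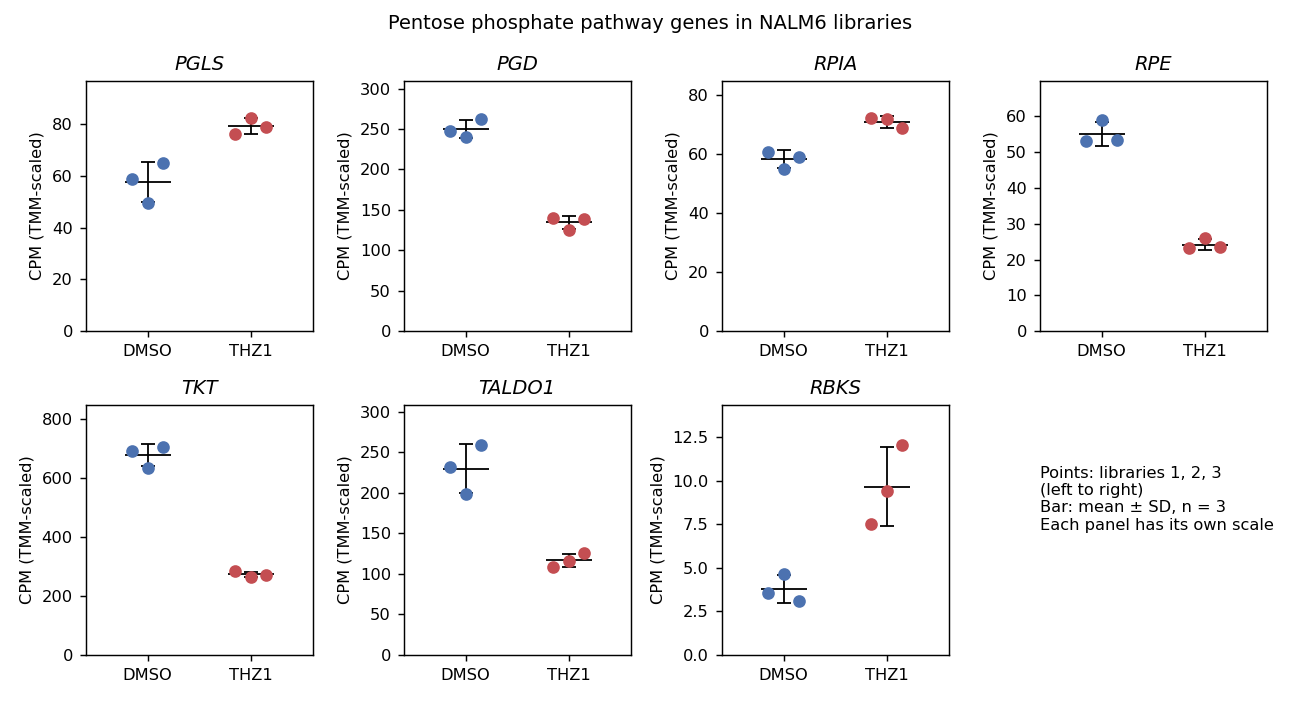
TMM-scaled CPM of the 7 enzymes in each library (points, replicates 1 to 3 from left to right), with the mean and SD of the 3 libraries of a treatment, on a separate axis from 0 for each gene. PGD, RPE, TKT and TALDO1 are lower in every THZ1-treated library and PGLS, RPIA and RBKS higher, with the smallest gap, relative to the level, for RPIA.

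Most of the enzymes were among the more abundant genes of the cells. By mean CPM, TKT stood at percentile 98.5 of the genes tested, TALDO1 at 94.2, PGLS at 81.1, RPIA at 79.8, RPE at 68.6 and RBKS at 32.1, with PGD between TKT and TALDO1. By log2 fold change, TKT stood at percentile 16.1 and RBKS at 73.8, and the other 5 lay between them. The plot of all genes shows this position.

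**Figure D2:**
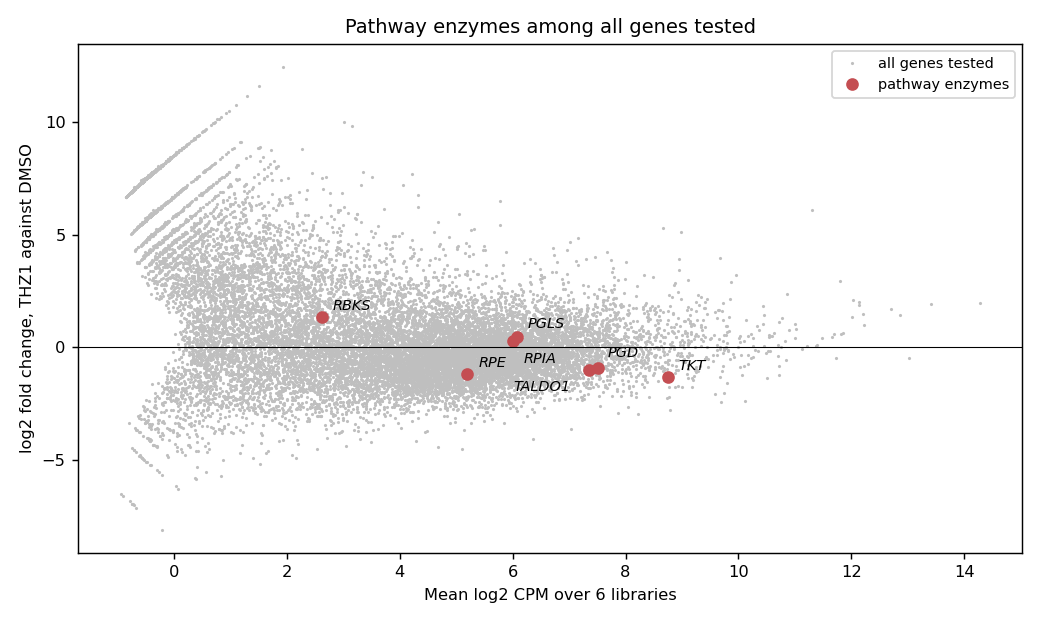
Log2 fold change of THZ1 against DMSO plotted over the mean log2 CPM of the 6 libraries, for all 16622 genes tested (gray) and the 7 enzymes (red). The enzymes lie inside the cloud of genes of like abundance, with log2 fold changes from −1.31 (TKT) to 1.34 (RBKS).

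Ratios of reads of a pair of members within a library do not depend on how the libraries are scaled. They are given as reads over reads, not divided by length, so only their change between treatments can be read. The ratio of RPIA to RPE was 1.14, 0.930 and 1.11 in the DMSO-treated libraries and 3.10, 2.77 and 2.93 in the THZ1-treated libraries, a change of 1.47 on the log2 scale. Relative to each other, the isomerase and the epimerase of ribulose 5-phosphate shifted toward the isomerase in every THZ1-treated library. The ratio of PGLS to PGD was 0.236, 0.206 and 0.248 with DMSO and 0.542, 0.658 and 0.571 with THZ1, a change of 1.36. The ratio of TKT to TALDO1 was 2.98, 3.21 and 2.72 with DMSO and 2.59, 2.29 and 2.17 with THZ1, a smaller change of −0.34 in which the treatments did not overlap. The ratio of PGD to TALDO1 was 1.07, 1.21 and 1.01 with DMSO and 1.29, 1.08 and 1.10 with THZ1, and the treatments overlapped. They also overlapped for PGD to RPE, RPE to TKT, RPE to TALDO1 and PGLS to RPIA, so within these pairs a difference in response was not seen beyond the spread of the libraries. With 3 libraries against 3, an exact permutation test cannot go below p = 0.1, so the ratios were described and not tested.

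**Figure D3:**
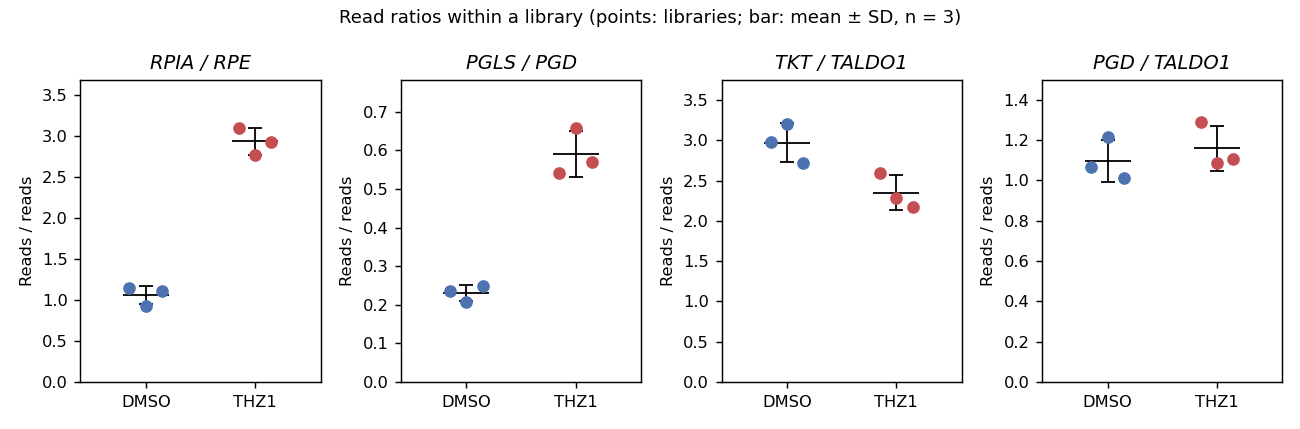
Reads of the first gene over reads of the second within each library (points), with the mean and SD of the 3 libraries of a treatment, on axes from 0. RPIA over RPE goes from 0.930 to 1.14 with DMSO to 2.77 to 3.10 with THZ1, PGLS over PGD rises too, TKT over TALDO1 falls less, and PGD over TALDO1 overlaps.

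Levels per length were compared as CPM per kilobase of the main annotated transcript, since TKT has no values in the log2 FPKM table used here. With DMSO the order was TKT at 226 ± 12.6, TALDO1 at 192 ± 25.7, PGD at 110.3 ± 4.91, PGLS at 57.2 ± 7.72, RPIA at 32.1 ± 1.67, RPE at 17.3 ± 1.05 and RBKS at 3.03 ± 0.641 CPM per kilobase (mean ± SD, n = 3 libraries). TKT and TALDO1 overlapped between libraries in that order, and the other neighbours did not. Within each DMSO-treated library TKT stood above TALDO1, at 231 against 194, 212 against 165 and 236 against 216 in replicate order. With THZ1 TALDO1 was at 97.2 ± 6.77, TKT at 91.1 ± 3.11, PGLS at 78.5 ± 3.10, PGD at 59.3 ± 3.65, RPIA at 39.0 ± 1.06, RBKS at 7.74 ± 1.83 and RPE at 7.61 ± 0.463 CPM per kilobase. On this scale PGLS stood above PGD with THZ1 and below it with DMSO, while with THZ1 TALDO1 overlapped TKT and RBKS overlapped RPE. Within the THZ1-treated libraries the order of TALDO1 and TKT, and that of RBKS and RPE, was not the same in all. The deposited FPKM values, which cover the 6 members without TKT, gave another order. In FPKM, PGLS stood below PGD under both treatments, at 56.7 ± 6.62 against 223 ± 0.631 with DMSO and 71.2 ± 2.68 against 103 ± 6.64 with THZ1, with no overlap. RBKS at 6.71 ± 2.06 FPKM did not overlap RPE at 17.3 ± 1.05 FPKM with THZ1. RPIA stood above PGLS in FPKM, at 91.1 ± 3.76 with DMSO and 99.3 ± 3.11 with THZ1, so these 3 orders differed between the scales.

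The share of each enzyme in the summed level also depended on the scale. Of the summed FPKM of the 6 members, RPIA made up 14.0% ± 0.603 with DMSO and 24.9% ± 1.26 with THZ1, and PGLS 8.70% ± 0.729 and 17.8% ± 0.755. By CPM per kilobase over the same 6 members RPIA made up 7.82% ± 0.480 and 13.5% ± 0.745, and PGLS 13.9% ± 0.619 and 27.1% ± 1.08. The shares of RPIA and PGLS were higher with THZ1 on both scales, but their size differed by more than 1.5 times between the scales. The shares of PGD went from 34.2% ± 1.13 to 25.7% ± 1.55 of the FPKM and those of TALDO1 from 35.7% ± 1.61 to 25.6% ± 1.31. With TKT included, which only CPM per kilobase allows, TKT made up 35.5% ± 0.923 of the 7 with DMSO and 23.9% ± 1.02 with THZ1, and the summed level went from 638 ± 50.1 to 380.5 ± 7.33 CPM per kilobase.

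**Figure D4:**
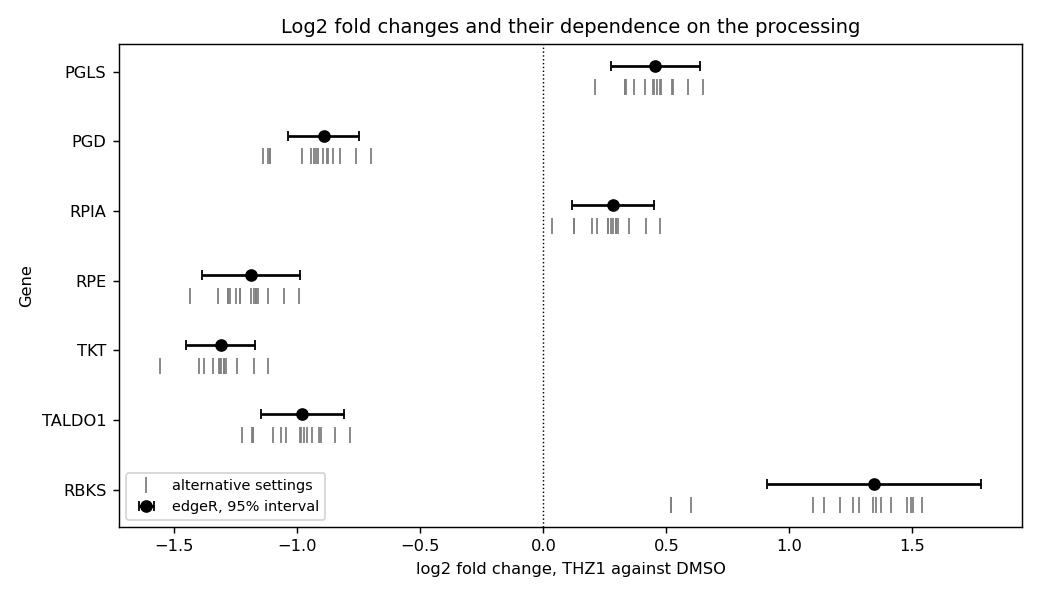
Log2 fold change of each enzyme by edgeR with its 95% interval (black) and the values under the alternative settings (gray ticks). No tick crosses 0, RPIA comes nearest at 0.035, and RBKS reaches down to 0.52.

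Genes at the reactions around the pathway were taken from a list of 23, written from general knowledge. Of the 16 tested, 10 were lower and 6 higher with THZ1, against 41.1% lower and 43.5% higher of all genes tested. Among genes at 10 CPM or more the shares were 50.6% and 35.8%. The median log2 fold change of the list was −1.09, against 0.03 over all genes tested. The fold threshold of 1.5 was passed by 5 of the lower and 2 of the higher genes, against 12.9% of all genes downward and 24.6% upward. For genes at 10 CPM or more alone, the median and these fold shares were not taken. RPEL1, TKTL1, TKTL2, RGN, PRPS1L1, FBP1 and FBP2 had too few counts to be tested, and TKTL1 and TKTL2, the paralogs of TKT, held at most 5 counts in any library. PRPS1 and PRPS2, the synthetases that turn ribose 5-phosphate into the nucleotide precursor PRPP, were both lower. PRPS1 was at 101.0, 107 and 106 CPM with DMSO and at 32.5, 37.4 and 37.3 CPM with THZ1, which is −1.55 on the log2 scale (standard error 0.09). PRPS2 was at 10.7, 11.4 and 9.37 CPM with DMSO and at 0.789, 1.11 and 1.20 CPM with THZ1, the lowest log2 fold change of the list at −3.33 (standard error 0.26). The treatments did not overlap for either synthetase. The phosphoglucomutases PGM1 and PGM2, which move phosphate groups on sugars, had log2 fold changes of −2.70 and −1.89, and PFKP, a phosphofructokinase of glycolysis, −2.60. IDNK, the gluconokinase that makes 6-phosphogluconate from gluconate, was the highest of the list at 2.97 on the log2 scale (standard error 0.23), going from 1.41, 1.64 and 2.19 CPM to 10.9, 16.5 and 14.0 CPM. The adjusted p-values of these 6 genes were between 3.75e-22 for PFKP and 4.14e-13 for PRPS2 by edgeR.

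A list of 16 other genes held enzymes that make or use NADPH and genes linked to them, such as the NAD kinases and folate enzymes. Of these, 13 were tested, with 12 lower and 1 higher, against 41.1% lower and 43.5% higher of all genes tested. Among genes at 10 CPM or more the shares were 50.6% and 35.8%. The median log2 fold change of the list was −1.32, against 0.03 over all genes tested. The fold threshold was passed by 6 of the lower genes and the 1 higher gene, against 12.9% of all genes downward and 24.6% upward. For genes at 10 CPM or more alone, where more genes were called lower than higher, the median and these fold shares were not taken. MTHFD1, the cytosolic folate enzyme with an NADPH-forming step, was lowest at −3.33 (standard error 0.09), from 172, 185 and 186 CPM to 16.3, 19.5 and 18.0 CPM. ME2, a mitochondrial malic enzyme, was at −3.13, IDH2, the mitochondrial NADP-dependent isocitrate dehydrogenase, at −2.19, MTHFD2 and MTHFD1L of mitochondrial folate metabolism at −1.97 and −1.79, and the mitochondrial NAD kinase NADK2 at −1.94. The cytosolic NAD kinase NADK, which makes NADP, was the 1 gene higher. NADK rose from 194, 182 and 192 CPM to 557, 530.3 and 547 CPM, which is 1.52 on the log2 scale (standard error 0.07, adjusted p = 1.51e-19 by edgeR). The treatments did not overlap for any of these 7 named genes. PGD, the NADPH-forming member, fell by 0.89 on the log2 scale, against the list median of −1.32, and that difference was not tested.

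**Figure D5:**
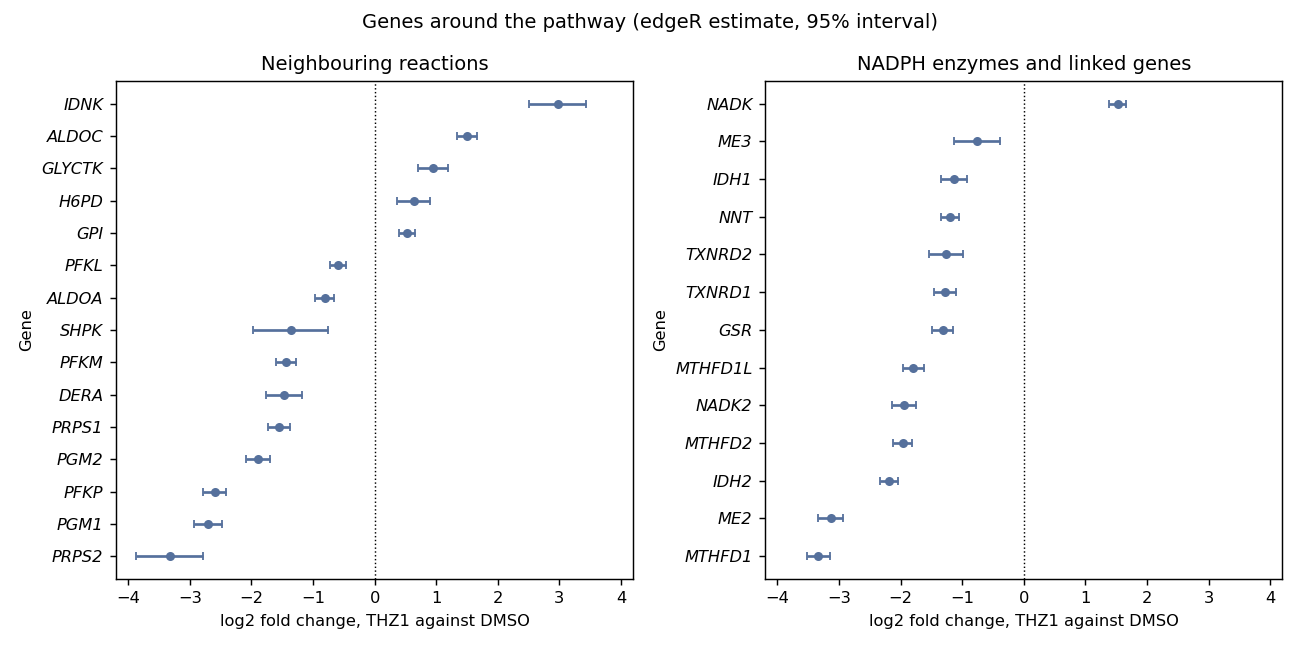
Log2 fold changes of THZ1 against DMSO with 95% intervals by edgeR, for the tested genes with a mean of at least 1 CPM, 15 of neighbouring reactions (left) and 13 NADPH enzymes and linked genes (right). The neighbours run from PRPS2 at −3.33 to IDNK at 2.97, and NADK at 1.52 is the only gene of the second list right of 0.

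For each member the gene with the most similar profile was the one with the highest Pearson correlation of log2 CPM over the 6 libraries, among genes with a mean of at least 10 CPM. The profiles are set mainly by the treatment, so the correlations are descriptions. For TKT it was FTSJ1 (r = 0.99981), and 1210 of the 10155 other genes had a correlation above 0.99 with TKT. For RPE it was NUP205 (0.99991), for PGD ODC1 (0.99978) and for TALDO1 DNPH1 (0.99940). The members that rose had fewer such genes, with 8 above 0.99 for PGLS (highest for ASB16-AS1, 0.99651, an antisense gene counted with no strand setting named), 13 for RPIA (C11orf24, 0.99762) and 2 for RBKS (DYRK1A, 0.99428). PGLS and RPIA had small log2 fold changes, 0.46 and 0.28, and RBKS had 37 to 90 counts per library. Among genes at 10 CPM or more, 50.6% were called lower and 35.8% higher. The part of these in the contrast was not tested.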

How the data were processed

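RNA-SEQ libraries of NALM6 cells, 3 per treatment, were analysed. The deposited table of raw gene counts came from htseq-count, run by the authors on filtered reads that STAR had aligned to GRCh37. The gene annotation and strand setting are not given in the sources used here. The authors also deposited log2 FPKM values, made with RSEM, which were read as log2(FPKM + 1). Their sorted values are nearly the same between libraries of one treatment, by a step that is not named. The same table holds the authors' own p-values, FDR and log2 fold changes, and these were not used.

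The edgeR filter filterByExpr (minimum count 10 and total 15) and TMM factors were applied. The quasi-likelihood test of edgeR was two-sided, and p-values were adjusted by Benjamini and Hochberg over the 16622 genes. The F statistic and the fold change gave the standard errors. A count floor of 3 corresponded to at most 0.253 CPM with DMSO and 0.415 CPM with THZ1, for counting error only. Between libraries of one treatment the chi-square per gene was 1.81 to 9.35, above sampling noise, and each was kept as a replicate. Annotation came from GENCODE 44 mapped to GRCh37, and promoter windows from RefSeq (GRCh38.p14) for 7 of 7 members. Similar transcripts were sought with blastn 2.17.0 (at least 90% identity over 100 bases).

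The members and lists were chosen with earlier results of these data known. Genes named were all members, the extremes of each list, list genes past the fold threshold of 1.5 without overlap and, for each member, the most similar gene. TKTL1, TKTL2, RPEL1 and the other list genes that did not pass the filter were named to account for the list. PGLS-DT, KANSL1L, RPEP4, BABAM2 and MRPL33 were named for overlap or similarity. A gene of the neighbour list that the rule names and a marker gene are not reported here. Alternatives were DESeq2, scaling by RLE, by upper quartiles or by library sizes alone, other filters, a replicate block, each library left out, and limma on the FPKM values. The CPM per kilobase levels of all 7 members were added after seeing the data. Simulated counts with known changes were used to test the scripts. R 4.3.3, edgeR 4.0.16, limma 3.58.1, DESeq2 1.42.0 and Python 3.11.15 were used.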

Additional observations from a re-analysis of the deposited data

How the results depend on the processing

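The log2 fold changes of PGLS, PGD, RPE and TALDO1 kept their direction and call under all 16 alternatives and that of TKT under all 13 that could be run for it, from −1.56 to −1.12 for TKT and from 0.21 to 0.65 for PGLS. RPIA was no longer called with library sizes alone (0.035) or with limma on the FPKM values (0.12 with a pseudocount of 1 at either filter, 0.13 with a pseudocount of 0.1), and RBKS was no longer called with limma on the FPKM values (0.52 with a pseudocount of 1 at either filter, 0.60 with 0.1). With these FPKM settings 1 member, PGLS, was called higher, and the cause was not tested. Against TMM, the median over all genes moved by −0.25 with library sizes alone, by 0.19 with upper quartiles, by 0.13 with a minimum of 10 counts per library, and in the FPKM values by −0.26 with a pseudocount of 1 and −0.31 with 0.1. Without any 1 of the 6 libraries no call of a member changed, with RPIA at 0.22 to 0.30 and RBKS at 1.14 to 1.503. Same-numbered libraries did not deviate together (correlations of −0.00400, 0.000969 and 0.0206), and with a replicate block the log2 fold changes were 0.46 for PGLS, −0.89 for PGD, 0.28 for RPIA, −1.19 for RPE, −1.31 for TKT, −0.97 for TALDO1 and 1.34 for RBKS, with no call changed. Of 141 recomputed log2 ratios between members no direction changed, and those to RBKS moved in the FPKM values, to −0.28 for PGLS, −1.73 for PGD, −0.49 for RPIA, −1.94 for RPE and −1.80 for TALDO1. Against the FPKM shares, CPM per kilobase over the same 6 members moved the shares with DMSO and THZ1 to 13.9% and 27.1% for PGLS, 26.9% and 20.5% for PGD, 7.82% and 13.5% for RPIA, 4.25% and 2.63% for RPE and 46.4% and 33.6% for TALDO1, and with THZ1 to 2.66% for RBKS. Over all 7 members, a choice made after seeing the data, shares moved to 20.6% for PGLS with THZ1, 17.3% and 15.6% for PGD, 5.04% and 10.3% for RPIA, 2.74% and 2.0% for RPE, and with DMSO to 29.97% for TALDO1 and 0.483% for RBKS. The depth limits RBKS most, with 37 to 90 counts per library.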
